A study of Mus musculus with 24 samples.

Results

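The imprinted Dlk1-Dio3 miRNA cluster was followed in small RNA from enriched male mouse germ cells that carried or lacked 3 Argonaute genes. Its members were taken by name: every row of the count table whose miRNA number is one of 48 numbers of the cluster, whatever its letter or arm. This gave 103 of the 1978 rows. Of these, 14 reached 10 counts in 3 or more of the 24 libraries and were tested, among 450 miRNAs in all that passed this filter. Another 63 members had counts but too few to be tested, and 26 had no count in any library. The 14 tested members held 90.4% of the 13747 counts of the cluster. Against the RefSeq annotation of GRCm38.p6, 99 members had a mature sequence, and 98 of these lay on chromosome 12 in 51 hairpins over 184.3 kb. The exception was miR-496b, which RefSeq places elsewhere and which had no counts. Another 12 miRNA rows lie between the first and last of these hairpins without being in the list of numbers, and none of them had a count.

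Pachytene/diplotene spermatocytes and round spermatids were each represented by 12 libraries, which divide evenly into Ago413+/+, Ago413+/- and Ago413-/- (n = 4 each). The Ago413 allele removes all of Ago1 and parts of Ago3 and Ago4, which lie side by side, and its deletion is constitutive, so that every cell of the testis carries it. Mice were C57BL/6J adults of 10 to 15 weeks, and each library pooled testes of 2 to 5 mice. Cells were enriched on a BSA gradient and fractions above 70% purity were combined, so other cells of the testis remained. In such bulk material, fewer cells of a type and less RNA per cell cannot be told apart. The counts hold miRNAs alone, so the loss of the Argonaute genes was not checked here. Library totals ran from 182904 to 1072637 counts, and from 182904 to 369491 in Ago413-/- spermatocytes, the least deeply covered group. There a count of 0 allows up to 3 counts, or 7.80 to 19.98 CPM (normalised counts, scaled by library size and TMM factor), which covers counting error only. Replicates were not duplicates of one another, since every pair differed beyond sampling noise.

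The Dlk1-Dio3 domain is a textbook imprinted region. The paternal chromosome expresses the protein-coding genes Dlk1, Rtl1 and Dio3, while the maternal chromosome expresses a chain of noncoding RNAs (Meg3, Rian and Mirg) that carry the miRNA hairpins and the snoRNAs of the region. Hairpins are cut by Drosha and Dicer, and 1 arm (or both) of the resulting duplex is loaded into an Argonaute protein, which uses bases 2 to 8 of the miRNA, the seed, to find its targets. Several members antisense to Rtl1, miR-127 among them, can pair perfectly with its mRNA. Expression of the cluster is high in embryo, placenta and brain.

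By their miRNA numbers the 103 members were listed as 22 of a first set from Meg3 to Rtl1 (4 tested), 4 of the Rian set (none tested) and 77 of the Mirg set (10 tested), which also holds miR-496b and 4 members without a RefSeq sequence. The sequences of the members that changed in at least one comparison between genotypes are shown here because the results turn on them, with the seed in capitals, from RefSeq.
miR-337-5p: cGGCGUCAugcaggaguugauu
miR-379-5p: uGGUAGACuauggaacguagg
miR-543-3p: aAACAUUCgcggugcacuucuu
miR-541-5p: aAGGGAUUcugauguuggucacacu
miR-409-5p: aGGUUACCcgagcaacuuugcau
miR-409-3p: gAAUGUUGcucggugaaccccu
miR-369-5p: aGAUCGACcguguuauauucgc

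No 2 of the 14 tested members share a seed. miR-379-5p shares its seed with the untested member miR-1193-5p, and miR-411-5p shares its seed with miR-7229-5p, a tested miRNA from outside the cluster. Closely similar pairs could share reads in the counting: miR-381-3p is identical to the untested miR-300-3p at 19 of 22 bases and miR-543-3p to the untested miR-495-3p at 18 of 22, so the counts of these tested members are less certain. The median GC content of the tested members was 46.5%, beside 45.8% over the 373 tested miRNAs with a sequence.

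The hairpins that carry most of the cluster's counts lie 0.75 kb apart at its far end and are printed with both mature arms in capitals. Mir541 lies at chr12:109742409-109742498 and Mir409 at chr12:109743158-109743236, on the plus strand of GRCm38.p6 within the annotated Mirg gene (109734981 to 109749458).
Mir541: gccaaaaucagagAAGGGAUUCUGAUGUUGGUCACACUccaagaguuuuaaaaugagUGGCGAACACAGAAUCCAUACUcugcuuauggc
Mir409: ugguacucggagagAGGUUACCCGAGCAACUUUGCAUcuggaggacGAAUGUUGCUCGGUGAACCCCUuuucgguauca

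In Ago413+/+ cells, miR-541-5p led the tested members with 762.2 ± 388.2 CPM (SD, n = 8 libraries of both cell types), rank 103 of 450 miRNAs, followed by miR-409-3p with 361.9 ± 112.6 CPM. miR-409-5p, from the other arm of the same hairpin, stood at 94.62 ± 22.97 CPM and miR-127-3p, the antisense partner of Rtl1, at 79.3 ± 42.6 CPM. These neighbours in the order overlap, since the SD of miR-127-3p covers the distance to miR-409-5p. The other 10 lay between 12.6 CPM (miR-337-5p) and 44.4 CPM (miR-379-5p). miR-541-5p and both arms of miR-409 together made up 70.85% of the cluster's counts in Ago413+/+ spermatocytes (62.4% to 83.04% per library) and 69.9% in Ago413+/+ round spermatids (63.5% to 85.4%).

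In Ago413-/- cells the summed cluster was lower. In spermatocytes it had 1741 ± 262.6 CPM in Ago413+/+, 1156 ± 381.3 CPM in Ago413+/- and 653.8 ± 236.8 CPM in Ago413-/- (SD, n = 4 each). In round spermatids the same sums were 1587 ± 682, 1006 ± 202 and 481 ± 87.7 CPM. The Ago413-/- and Ago413+/+ libraries did not overlap in either cell type. In spermatocytes this separation rests on miR-541-5p, whose Ago413-/- counts are in doubt because the deposited table lists the same number in all 4 libraries. Without it the sums were 957 ± 164 CPM (811.9 to 1187) in Ago413+/+ and 485.02 ± 249.57 CPM (346 to 859.1) in Ago413-/- spermatocytes, which overlap, and the ratio of the means went from 2.66 to 1.97. In round spermatids they were 847 ± 196 and 395.5 ± 75.9 CPM without it and still did not overlap. Most of the drop in the sum lay in 3 miRNAs. The sum of miR-541-5p and both miR-409 arms was 5.33-fold lower in Ago413-/- than in Ago413+/+ spermatocytes and 9.49-fold lower in round spermatids, with Ago413-/- libraries below every Ago413+/+ and Ago413+/- library of the cell type. The other 100 rows summed to 471 ± 149 CPM in Ago413+/+ and 415 ± 260 CPM in Ago413-/- spermatocytes, and to 421 ± 112 and 358 ± 61.1 CPM in round spermatids, where the genotypes overlapped. Accordingly, the 3 miRNAs fell to 32.7% of the cluster's counts in Ago413-/- spermatocytes (20.7% to 66.7%) and 25.5% in Ago413-/- round spermatids (22.7% to 29.6%), a share that needs no scaling between libraries. In spermatocytes the highest Ago413-/- share, in replicate 2, lay above the lowest Ago413+/+ share. These 3 miRNAs were singled out after their values were seen, so the sums are a description with no test.

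**Figure D1:**
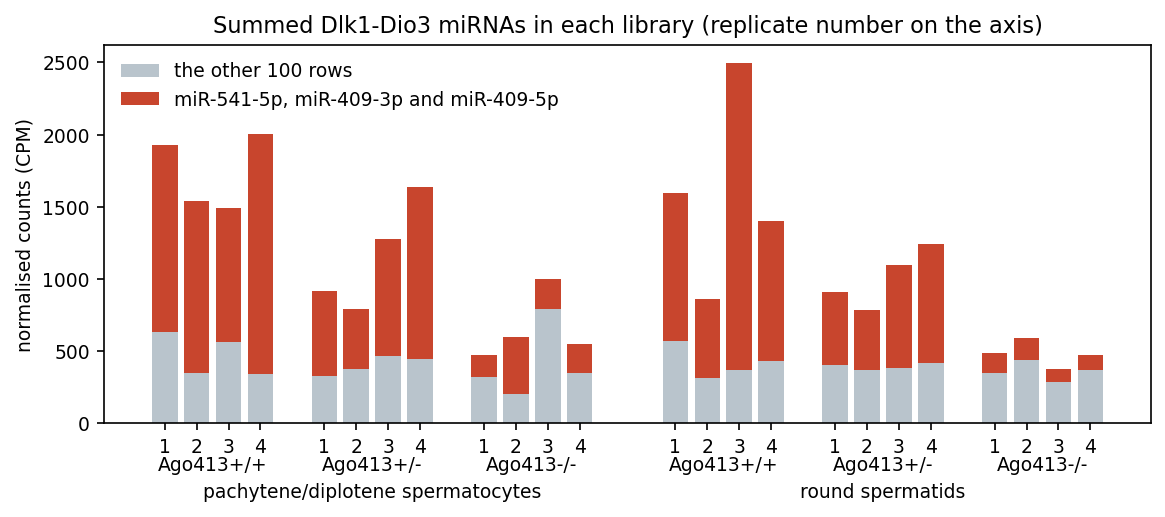
Summed CPM of the 103 cluster rows in each of the 24 libraries, by genotype and cell type, with miR-541-5p and both miR-409 arms stacked in red on the other 100 rows in grey. The red part shrinks in the Ago413-/- libraries (means of 239 CPM in spermatocytes and 123 CPM in round spermatids, against 1271 and 1167 CPM in Ago413+/+), while the grey part overlaps between genotypes.

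Each member was compared by edgeR's quasi-likelihood test, fitted to all 450 miRNAs of the 12 libraries of a cell type, with p-values adjusted over all 450 (Benjamini-Hochberg). Changed miRNAs are those at an adjusted p under 0.05 that differed by 1 or more on the log2 scale in either direction. The filter took libraries of all genotypes. miR-337-5p, miR-369-5p, miR-409-5p, miR-410-3p and miR-543-3p reached 10 counts in no Ago413-/- library. They passed the filter through the other genotypes alone, which favours lower values in Ago413-/- among the members counted below. In spermatocytes 4 of 14 members were changed in Ago413-/- against Ago413+/+, all of them lower, where 3.11% of all miRNAs tested were changed and lower. The median log2 fold change of the members was -1.32, with 11 of 14 below 0, beside -0.06 over all 450. In round spermatids 6 of 14 members were changed, 5 lower and 1 higher, where 10.9% of all miRNAs tested were changed and lower and 5.33% changed and higher. Here the median of the members was -1.43, again with 11 of 14 below 0, beside -0.01 over all 450. Over all 450 miRNAs the round spermatid calls were 24 higher and 49 lower, and 15 higher and 53 lower with library totals in place of TMM scaling. In spermatocytes library totals moved the median of all miRNAs from -0.06 to -0.25 and that of the members from -1.32 to -1.499. Ago413-/- and Ago413+/+ libraries did not overlap for 5 of 14 members in spermatocytes (18.9% of all miRNAs) and for 7 of 14 in round spermatids (22.9% of all miRNAs). These shares take a 0 as 0 CPM, although it allows up to 3 counts.

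**Figure D2:**
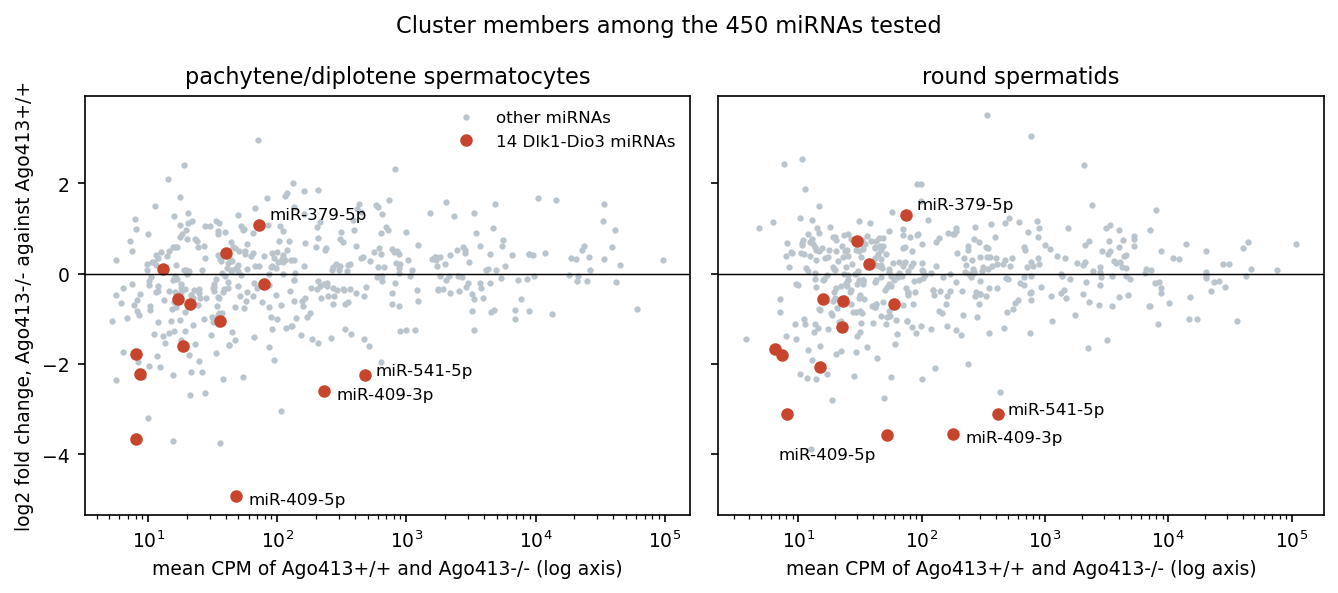
Log2 fold change of Ago413-/- against Ago413+/+ (vertical) and mean CPM of these 8 libraries (horizontal, log axis) for the 450 miRNAs tested, with the 14 cluster members in red and all others in grey. Both miR-409 arms and miR-541-5p lie at the lower edge of the cloud in both cell types, from -2.24 to -4.91, and miR-379-5p lies above 0.

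miR-409-5p gave the smallest p of all 450 miRNAs in spermatocytes. Its Ago413+/+ libraries held 101.3, 69.8, 84.2 and 120.6 CPM, the Ago413+/- libraries 50.4, 34.0, 32.9 and 40.4 CPM, and the Ago413-/- libraries 5.20, 0, 3.70 and 0 CPM. The genotypes stood in separate ranges, Ago413+/- between the other two, but Ago413+/- against Ago413+/+ did not pass the test (edgeR adjusted p = 0.823). Only 3 counts remained over the Ago413-/- group, against 222 in Ago413+/+, a pooled ratio of 29.9 (10.1 to 146, exact 95% interval for counting error only), and edgeR's adjusted p was 0.000159. In round spermatids it had 107.9, 57.5, 94.7 and 121.1 CPM in Ago413+/+, 42.8, 50.1, 53.1 and 83.1 CPM in Ago413+/-, and 3.33, 19.5, 2.58 and 10.8 CPM in Ago413-/-. Each Ago413-/- value lay below all 8 others, while the values of Ago413+/- and Ago413+/+ overlapped. The log2 fold change of Ago413-/- against Ago413+/+ was -3.56 (edgeR adjusted p = 0.000196, standard error 0.49).

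miR-409-3p, from the opposite arm of the same hairpin, gave the smallest p of all 450 miRNAs in round spermatids. There its CPM were 364.3, 219.1, 480.4 and 262.5 in Ago413+/+, 117.0, 98.6, 217.5 and 273.7 in Ago413+/-, and 21.6, 36.2, 20.6 and 36.6 in Ago413-/-. The Ago413-/- libraries were far below both other genotypes, which overlapped each other, and the log2 fold change against Ago413+/+ was -3.54 (edgeR adjusted p = 3.62e-05, standard error 0.40). In spermatocytes the CPM were 451.5, 393.0, 229.1 and 494.98 in Ago413+/+, 94.8, 134.8, 209.2 and 422.4 in Ago413+/-, and 41.6, 146.5, 63.0 and 19.2 in Ago413-/-. Ago413-/- lay below every Ago413+/+ library but overlapped Ago413+/-. The log2 fold change against Ago413+/+ was -2.60 (edgeR adjusted p = 0.0168, standard error 0.58), and without Ago413-/- replicate 1 the adjusted p was 0.0558.

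miR-541-5p, the most abundant member, had 551.5, 267.5, 1556 and 584.9 CPM in Ago413+/+ round spermatids, 344.4, 265.6, 442.6 and 462.9 CPM in Ago413+/- and 119.7, 97.4, 63.2 and 60.3 CPM in Ago413-/-. Despite a wide spread in Ago413+/+, where replicate 3 was high, no Ago413-/- library reached the lowest of the others, and the log2 fold change against Ago413+/+ was -3.11 (edgeR adjusted p = 0.000214, standard error 0.45). In spermatocytes it had 743.7, 729.8, 617.1 and 1047 CPM in Ago413+/+, 447.5, 245.4, 568.8 and 729.8 CPM in Ago413+/- and 98.8, 253.0, 140.7 and 182.7 CPM in Ago413-/-. Against Ago413+/+ this was a log2 fold change of -2.24 (edgeR adjusted p = 0.00417, standard error 0.41).

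The spermatocyte values of miR-541-5p carry a peculiarity of the deposited table that bears on this result. As given above for the summed cluster, the 4 Ago413-/- spermatocyte libraries list exactly 38 counts each, although their totals differ by 2.02-fold, so that the differences in CPM among them come from library size alone. Of the 2180 combinations of a miRNA and a group with a mean of at least 10 counts, this was the one with the same count in all 4 libraries. Whether these 4 entries are measured counts was not tested, and the spread and the p-value of miR-541-5p in spermatocytes rest on them. Without miR-541-5p, 3 members were changed in Ago413-/- against Ago413+/+ spermatocytes, and the summed cluster overlapped between these genotypes. The sum of both miR-409 arms was 486 ± 131 CPM in Ago413+/+, 255 ± 145 CPM in Ago413+/- and 69.8 ± 54.7 CPM in Ago413-/-, with no overlap between Ago413-/- and Ago413+/+. The round spermatid counts of miR-541-5p show no such repeat.

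**Figure D3:**
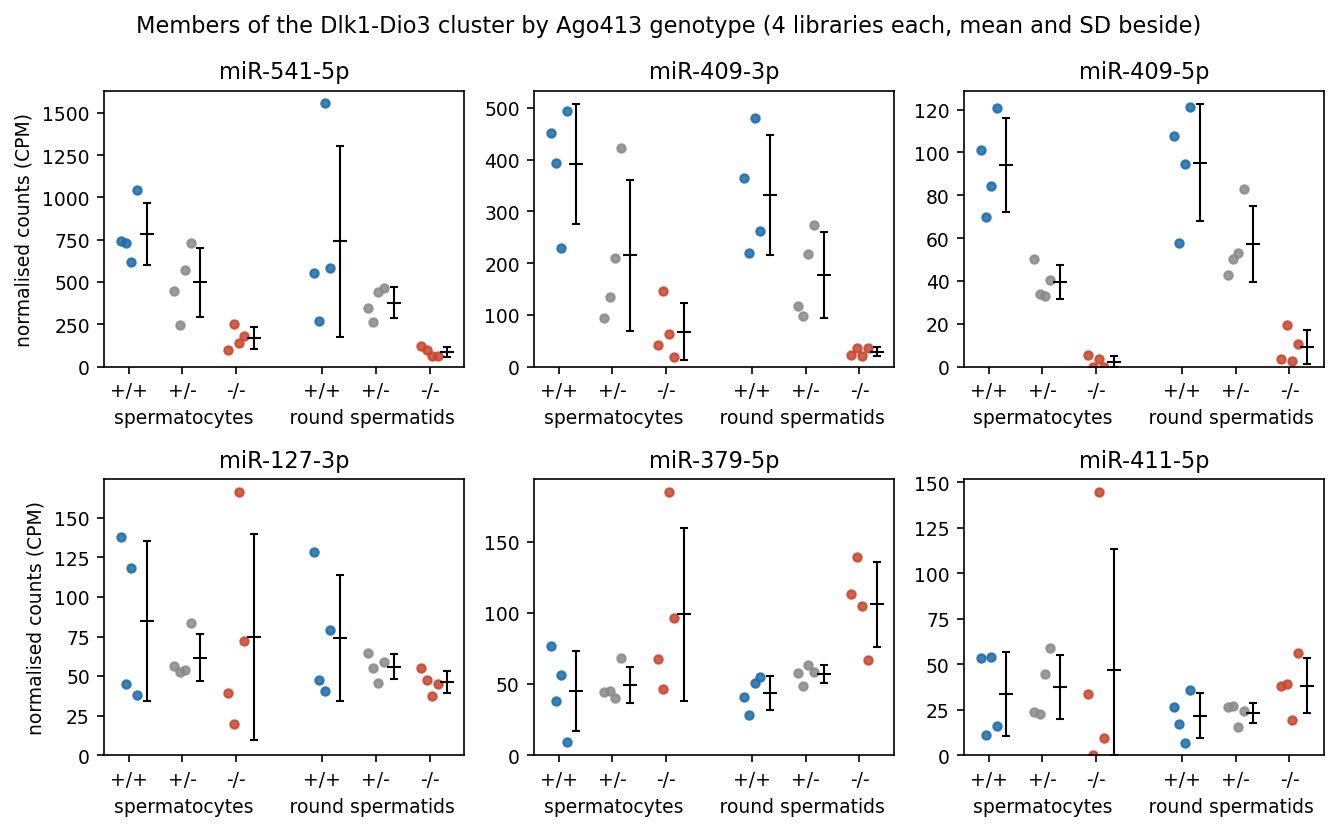
CPM of 6 members in each library (points), with the mean and SD of the 4 libraries beside them, for Ago413+/+ (+/+), Ago413+/- (+/-) and Ago413-/- (-/-). The upper row shows miR-541-5p and both miR-409 arms, whose Ago413-/- points lie below all Ago413+/+ points, and the lower row miR-127-3p, miR-379-5p and miR-411-5p, whose genotypes overlap except for miR-379-5p in round spermatids.

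The other far-end hairpins with a tested arm, Mir369 and Mir410, start 0.26 and 0.56 kb after Mir409, while Mir412 and Mir3072 had 57 and 74 counts over all libraries and no tested arm. miR-369-5p had 20.35, 14.61, 37.22 and 23.97 CPM in Ago413+/+ round spermatids and 4.99, 11.1, 1.29 and 6.46 CPM in Ago413-/-, without overlap (edgeR adjusted p = 0.0119 at a log2 fold change of -2.07, standard error 0.53). In spermatocytes its listed values did not overlap either, with a log2 fold change of -1.60 that missed the threshold (edgeR adjusted p = 0.0926). There the 0 of Ago413-/- replicate 2 allows up to 19.98 CPM, above the lowest Ago413+/+ value of 18.7 CPM. miR-369-3p, the more abundant arm in spermatocytes, had log2 fold changes of -1.05 and -0.60 in spermatocytes and round spermatids, and miR-410-3p had -2.22 and -1.80 at 3 and 6 counts in the Ago413-/- groups. None of these 4 passed the test.

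Upstream of the annotated Mirg gene, the Mirg set begins with miR-379 and miR-411. miR-379-5p was the 1 member changed and higher, in round spermatids against Ago413+/+. It had 40.7, 28.3, 50.8 and 55.1 CPM in Ago413+/+ round spermatids, 57.7, 48.5, 63.2 and 58.8 CPM in Ago413+/- and 113.0, 139.2, 104.5 and 66.8 CPM in Ago413-/-. Every Ago413-/- library was above every other, and the log2 fold change was 1.29 against Ago413+/+ (edgeR adjusted p = 0.00795, standard error 0.30). Against Ago413+/- it was 0.89 (edgeR adjusted p = 0.0477), below the minimum fold change. In spermatocytes its genotypes overlapped, with means of 98.9 ± 61.0 CPM for the Ago413-/- libraries and 45.1 ± 28.3 CPM for Ago413+/+, a difference that missed the threshold (edgeR adjusted p = 0.215, log2 fold change 1.07). miR-411-5p, from the hairpin that starts 1.12 kb after Mir379, had log2 fold changes of 0.46 and 0.72 in spermatocytes and round spermatids and passed in neither.

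miR-543-3p had 14.2, 14.6, 23.7 and 5.99 CPM in Ago413+/+ round spermatids and 1.66, 0, 0 and 4.31 CPM in Ago413-/-, which is 35 counts against 3. The listed values did not overlap, and the pooled ratio was 9.45 (2.98 to 48.0, exact 95% interval for counting error only, and edgeR adjusted p = 0.0133). The 0 of Ago413-/- replicate 2 allows up to 8.35 CPM, above the lowest Ago413+/+ value, so this separation is uncertain. Without Ago413-/- replicate 3 the adjusted p was 0.0535. Its log2 fold change in spermatocytes, -1.79, did not pass. miR-381-3p had log2 fold changes of -0.67 in spermatocytes and 0.20 in round spermatids, neither past the test.

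In the set from Meg3 to Rtl1, 1 of the 4 tested members was changed in spermatocytes. miR-337-5p had 18.3, 17.8, 15.2 and 9.52 CPM in Ago413+/+ and 0, 0, 3.70 and 0 CPM in Ago413-/-, or 40 counts against 1, a pooled ratio of 16.2 (2.74 to 655, exact 95% interval for counting error only; edgeR adjusted p = 0.0203). The upper bound shows how little 1 count fixes the size of this difference, and without Ago413-/- replicate 1 the edgeR adjusted p was 0.0582. The 0 values of miR-337-5p in Ago413-/- replicates 1, 2 and 4 allow up to 7.80, 19.98 and 14.42 CPM. Those of replicates 2 and 4 reach the Ago413+/+ values. In round spermatids its Ago413-/- values, 1.66 to 5.16 CPM, lay below the 6.77 to 16.8 CPM of Ago413+/+ with an adjusted p of 0.0632 (edgeR). miR-127-3p stood at 84.8 ± 50.6 CPM in Ago413+/+ spermatocytes and at 74.4 ± 65.1 CPM in those of Ago413-/-, and 73.9 ± 39.9 and 46.2 ± 7.17 CPM in round spermatids, with overlap in both. The arms of miR-434 had log2 fold changes between -1.18 and 0.09, none past the test.

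**Figure D4:**
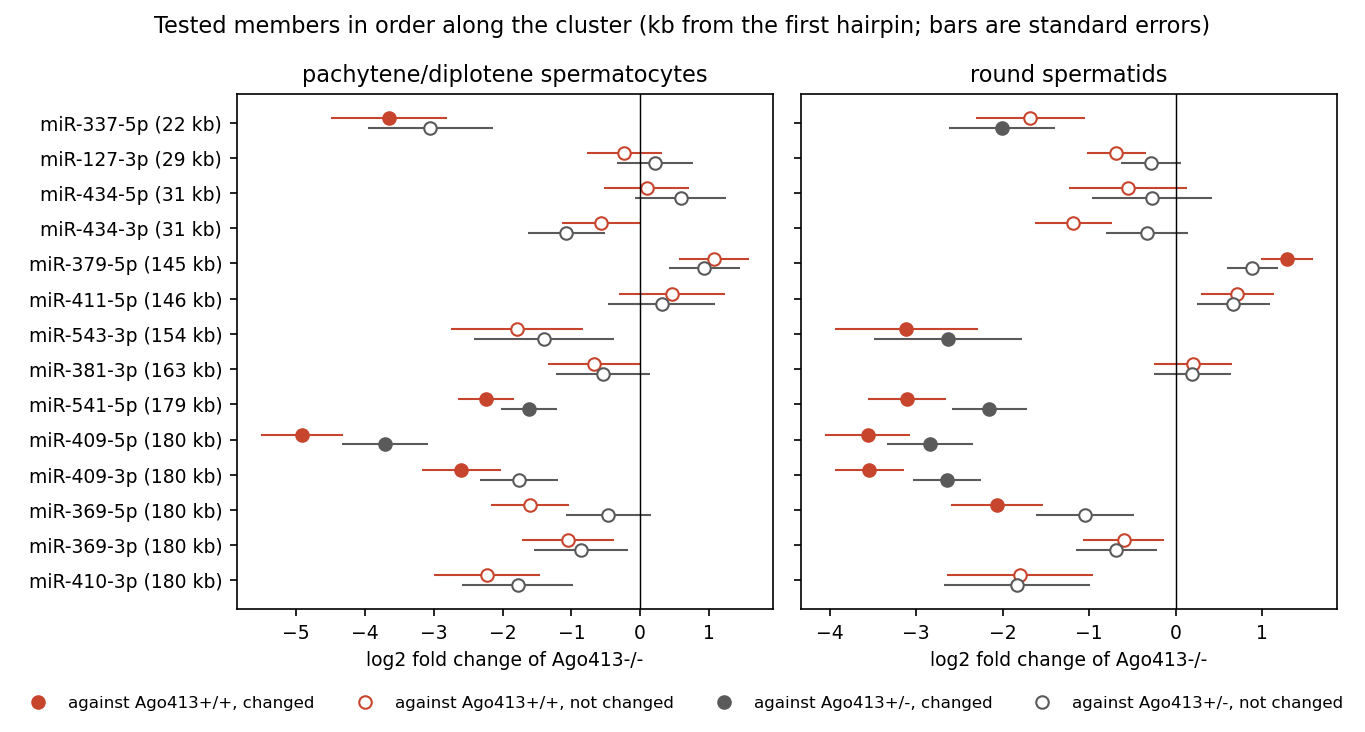
Log2 fold change of Ago413-/- against Ago413+/+ (red) and against Ago413+/- (grey) for the 14 tested members in their order along the cluster, with standard errors, and filled points for changed members. From miR-541-5p on (178.7 kb from the first hairpin) all 6 members lie below 0 in both cell types and against both genotypes, while miR-379-5p and miR-411-5p (145.4 and 146.5 kb) lie above 0.

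The values were also summed by position relative to the annotated Mirg gene, a division that was made after the values were seen and was not tested. The 18 Mirg members inside the RefSeq Mirg gene (6 tested, miR-541-5p among them) summed to 1393 ± 316 CPM in Ago413+/+ and 302 ± 98.0 CPM in Ago413-/- spermatocytes, and to 1254 ± 703 CPM in Ago413+/+ and 164 CPM (104.5 to 208.7) in Ago413-/- round spermatids, without overlap. All 6 of the tested ones had negative log2 fold changes, with medians of -2.23 and -2.59. Of these, miR-369-5p, miR-409-5p and miR-410-3p passed the filter only through libraries other than those of Ago413-/-. In Ago413+/+, miR-541-5p and both miR-409 arms held 2972 of the 3271 counts inside the gene in spermatocytes and 2537 of 2756 in round spermatids. The 54 Mirg members upstream of the annotated gene (4 tested) summed to 188 ± 79.5 CPM in Ago413+/+ and 220 ± 162 CPM in Ago413-/- spermatocytes, and to 176 ± 49.1 and 224 ± 43.6 CPM in round spermatids, with overlap. The upstream members include miR-379-5p, changed and higher, and miR-543-3p, changed and lower, in round spermatids. Without the tested members, the 12 inside the gene had 29.4 CPM in both genotypes of spermatocytes and 23.3 and 13.3 CPM in round spermatids, and the genotypes overlapped in both cell types. The first set, from Meg3 to Rtl1, had 151 ± 71.5 and 119 ± 78.9 CPM in Ago413+/+ and Ago413-/- spermatocytes and 146 ± 82.1 and 87.0 ± 12.3 CPM in round spermatids, with overlap in both cell types. The 4 Rian members had 15 and 10 counts in Ago413+/+ and Ago413-/- spermatocytes, too few to compare.

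**Figure D5:**
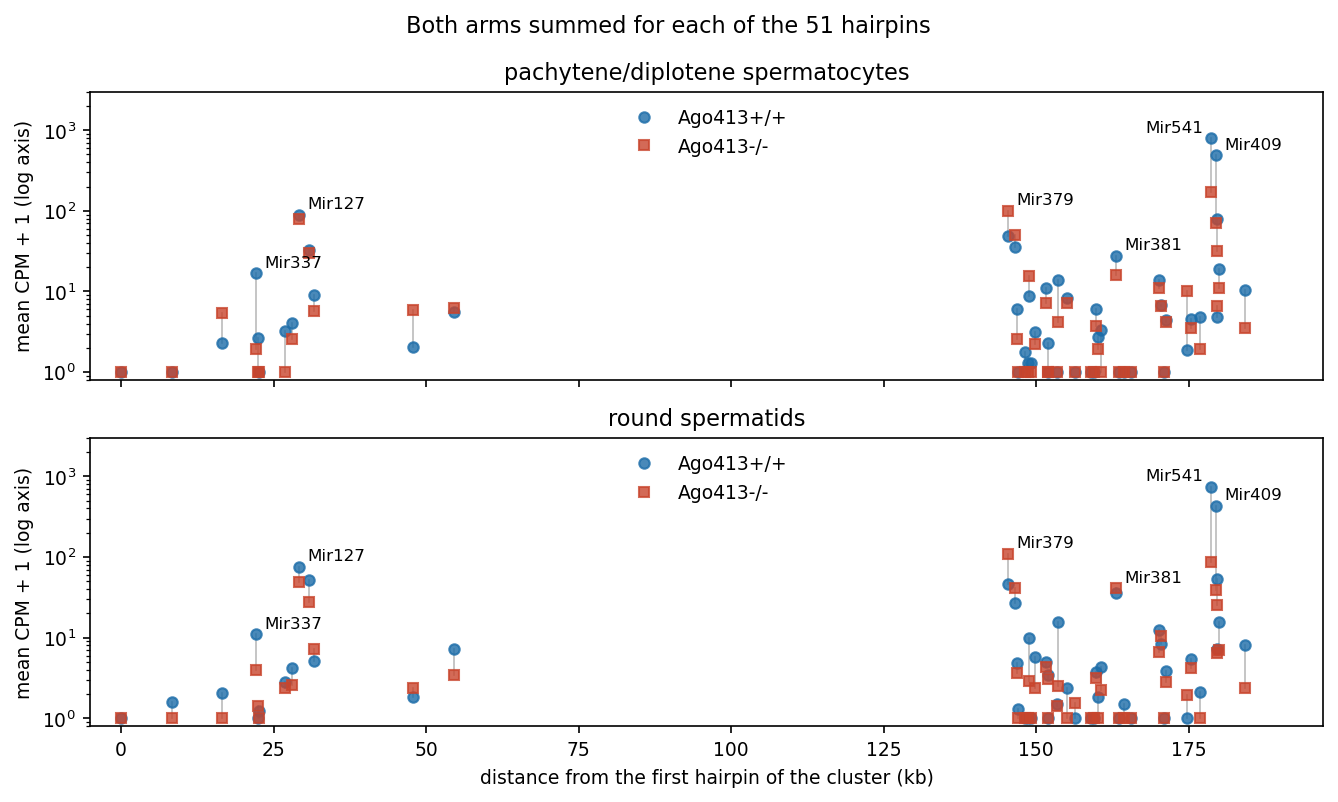
Mean CPM + 1 (log axis) of each of the 51 hairpins, arms summed, against its distance from the first hairpin of the cluster, in Ago413+/+ (circles) and Ago413-/- (squares), with a grey line joining the genotypes. Mir376c, Mir485, Mir487b and Mir539 are given by 1 arm, since their other arm had no RefSeq sequence. Long drops are seen at Mir541 and Mir409 at the far end (788.7 to 169.7 CPM and 486.1 to 69.8 CPM in spermatocytes) and, at low counts, at Mir337 in the first set (15.8 to 0.926 CPM), while Mir379 is higher in Ago413-/-. Mir543, upstream of the annotated Mirg gene, also drops at low counts (14.6 to 1.49 CPM in round spermatids).

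Ago413+/- mice, which keep 1 copy of each gene, served as a second reference. The comparisons with Ago413+/- and with Ago413+/+ share the Ago413-/- libraries, so they are not independent. In spermatocytes 2 of 14 members were changed in Ago413-/- against Ago413+/-, both lower (1.78% of all miRNAs changed and lower): miR-409-5p, with a log2 fold change of -3.71 (edgeR adjusted p = 0.00431, standard error 0.62), and miR-541-5p, with -1.62 (edgeR adjusted p = 0.0483, standard error 0.40). The second of these rests on the repeated count of 38 and lost its call without Ago413-/- replicate 1, 3 or 4 or Ago413+/- replicate 1 or 3. In round spermatids 5 of 14 were changed, all lower (8.89% of all miRNAs changed and lower). miR-409-3p had a log2 fold change of -2.65 (edgeR adjusted p = 0.000757, standard error 0.39), miR-409-5p -2.84 (0.50, 0.00156) and miR-541-5p -2.15 (0.44, 0.00524). miR-543-3p (adjusted p = 0.0447) and miR-337-5p (adjusted p = 0.0354), both with few counts, lost their calls in 5 and 7 of the 8 fits that left out 1 library.

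Between Ago413+/- and Ago413+/+, 0 of 14 members were changed in spermatocytes (0% of all miRNAs) and 0 of 14 in round spermatids (0% of all miRNAs) by edgeR, and DESeq2 called none of the members either. At an unadjusted p under 0.05 there were 2 of 14 members in spermatocytes (3.56% of all miRNAs), miR-409-5p (-1.21) and miR-369-5p (-1.14). In round spermatids there were 3 of 14, where 15.1% of all miRNAs did the same, namely miR-369-5p (-1.02), miR-541-5p (-0.96) and miR-409-3p (-0.90). These log2 fold changes were all negative, with lower values in Ago413+/-, and 3 of 14 is close to the share over all miRNAs. The means of miR-541-5p and both miR-409 arms stood in the order Ago413+/+, Ago413+/-, Ago413-/- in both cell types, and the first step of this order did not pass the test.

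No member was called between the cell types. Round spermatids against spermatocytes gave 0 of 14 changed members in Ago413+/+ (0% of all miRNAs, and no member at an unadjusted p under 0.05, beside 2.22% of all miRNAs) and 0 of 14 in Ago413-/- (4.89% of all miRNAs). In Ago413-/- 2 of 14 members, miR-409-3p and miR-541-5p, had unadjusted p-values of 0.0382 and 0.0383 (edgeR), a smaller share than the 27.8% of all miRNAs under 0.05. The effect of the Ago413-/- genotype was compared between cell types by the interaction term of the fit over all 24 libraries, which gave 0 of 14 members (0% of all miRNAs) at an adjusted p under 0.05 and no member at an unadjusted p under 0.05 (12.2% of all miRNAs). The standard errors of these differences were 0.59 to 1.39 on the log2 scale, so only large differences between the cell types could have been seen.

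Whether the arms of a hairpin changed alike was examined for the 3 member hairpins with both arms tested, among 116 hairpins, by the log2 ratio of 5p to 3p counts in each library. Mir409 had a mean ratio of -2.02 ± 0.43 in Ago413+/+ and -3.73 ± 1.22 in Ago413-/- spermatocytes (SD, n = 4 each, p = 0.0286 by the exact two-sided permutation test, the smallest p possible, adjusted p = 0.255). The direction turned with a pseudocount of 5 in place of 0.5, where the difference of Ago413-/- minus Ago413+/+ was 0.25. In round spermatids the mean ratios of Mir409 were -1.78 ± 0.50 and -1.92 ± 0.84. With 4 libraries against 4, an adjusted p under 0.05 would need 67 of the 116 hairpins at the smallest possible p, and 13 reached it in spermatocytes and 27 in round spermatids, so the adjusted values cannot say whether the arms changed alike.

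Some markers of other testis cells moved with genotype in round spermatids. Higher in Ago413-/- than in Ago413+/+ round spermatids were 2 of 2 tested miRNAs of blood, 2 of 4 of immune cells, 1 of 2 of endothelium, 1 of 2 of gonadal somatic cells and 1 of 3 of mesenchymal cells, and 0 of 2 of peritubular cells and 0 of 3 of meiotic germ cells changed. Over all miRNAs tested, 5.33% were changed and higher in this comparison. Against Ago413+/-, 0 of 2 tested miRNAs of blood and 1 of 4 of immune cells (miR-150-5p) were higher. Endothelium, gonadal somatic cells and mesenchymal cells again had 1 each, where 19 of all 450 miRNAs were changed and higher. Summed levels were 49.1 to 501 and 103 to 4807 CPM for blood, 151 to 351 and 414 to 584 CPM for immune cells, 511 to 1988 and 1949 to 5852 CPM for endothelium, 2497 to 8167 and 9023 to 15960 CPM for gonadal somatic cells and 1725 to 3547 and 3401 to 5346 CPM for mesenchymal cells in Ago413+/+ and Ago413-/-, respectively. Peritubular markers summed to 1059 to 8545 and 2029 to 3440 CPM, and germ cell markers to 59190 to 108300 and 70320 to 133700 CPM, with overlap. In spermatocytes 0 of the 18 tested markers of all 7 lists changed between Ago413-/- and Ago413+/+, where 19 of all 450 miRNAs did. The summed levels of each list overlapped. Log2 fold changes of these markers ran from -2.36 (miR-223-3p) to 1.48 (miR-202-3p). Germ cell markers there summed to 58020 to 112000 CPM in Ago413+/+ and 18730 to 78790 CPM in Ago413-/-. The part of cell composition in the results of either cell type was not tested. Among miRNAs of other imprinted loci (H19, Igf2, Mest and Nespas), 7 of 10 rows were tested. None changed between Ago413-/- and Ago413+/+ in either cell type. Over all 450 miRNAs, 19 changed in spermatocytes and 73 in round spermatids. The log2 fold changes of these loci ran from -0.43 to 2.40 (median 1.2) in spermatocytes and from -0.59 to 0.69 (median 0.15) in round spermatids. In the Sfmbt2 cluster, whose copies share reads, 35 of 80 rows were tested. Of these, 1 was lower in spermatocytes (3.11% of all miRNAs) and 7 in round spermatids (10.9% of all miRNAs).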

How the data were processed

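Total RNA of the enriched cells was made into small RNA libraries with the NEBNext kit and sequenced as single reads. The authors trimmed reads with TrimGalore, counted them with miRDeep2 against miRBase, and deposited raw counts per mature miRNA, not normalized, for 24 libraries. Library totals were 182904 to 1072637 counts, and a count of 0 allows up to 3 counts, for counting error only, since PCR reads without molecular identifiers are not independent.

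Members and lists were chosen with earlier results of these data known. Groups and replicates come from the labels, which do not say how pooled mice were divided among replicates, so p-values measure the spread between these libraries. miRNAs that reached 10 counts in 3 or more of 24 libraries were tested with edgeR 4.0.16 in R 4.3.3 (TMM, quasi-likelihood, no covariates, Benjamini-Hochberg), per cell type with all 3 genotypes, or over all 24 libraries in 6 groups to compare cell types. CPM are counts over the library total times its TMM factor. The procedure was tested on simulated data. Sequences and coordinates are those of RefSeq, GRCm38.p6. Named are members changed in any comparison, the 10 most abundant in Ago413+/+, their other tested arms and the ends of the range of changes; the other members are given by counts. Alternatives were DESeq2 1.42.0, RLE scaling, library totals, 3 filters, families by name, the adjusted p alone, other sets of libraries, a term for library number, a replicate block, a pseudocount of 5 for arm ratios and leaving out each library. Leaving miR-541-5p out of the spermatocyte counts was added after its identical counts were seen.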

Additional observations from a re-analysis of the deposited data

Results flagged for a closer look

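Each tested member was examined in each of the 6 groups for 1 library far from the other 3, by the gap to the nearest value over the whole range. Of 84 such groups, 6 had one, where chance gives about 4.2. Values are CPM, and all 6 libraries were high.

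miR-127-3p had 83.85 in Ago413+/- spermatocyte replicate 4, beside 52.5 to 56.3 in the others. miR-337-5p had 3.703, which is 1 count, in Ago413-/- spermatocyte replicate 3, where the others had 0. The same miRNA had 16.78 in Ago413+/+ round spermatid replicate 4, beside 6.77 to 8.22. miR-369-3p had 44.49 in Ago413+/- round spermatid replicate 1, beside 22.9 to 25.3. miR-434-3p had 33.29 in Ago413-/- spermatocyte replicate 2, the smallest library, where this is 5 counts, beside 7.41 to 9.62. miR-434-5p had 59.01 in Ago413+/+ round spermatid replicate 1, beside 3.38 to 8.39, and without this library its log2 fold change in Ago413-/- round spermatids was 0.91 in place of -0.55.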

How the results depend on the processing

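The 17 calls of members in Ago413-/- against either genotype were recomputed under the alternatives, and 265 of 293 values kept the call, 28 lost it and 0 changed sign. Against Ago413+/+, miR-409-5p and miR-541-5p in both cell types and miR-409-3p, miR-379-5p and miR-369-5p in round spermatids kept their calls in every alternative run. For miR-541-5p in spermatocytes every run used the repeated count, so these runs cannot say whether it was measured. Counts of changed members ranged from 2 to 4 (4 in the main analysis) on leaving out 1 library in spermatocytes against Ago413+/+, the lowest without Ago413-/- replicate 1, from 1 to 3 (2) against Ago413+/-, from 5 to 7 (6) in round spermatids against Ago413+/+ and from 3 to 5 (5) against Ago413+/-. With at least 10 counts in every library, which left 1 member in spermatocytes and 4 in round spermatids, they were 1, 1, 3 and 2. The 1 member left in spermatocytes was miR-541-5p, so both spermatocyte values rest on its repeated count of 38. Spermatocytes against Ago413+/- gave 1 with only the groups compared, 1 with a term for library number, 4 with all 24 libraries in 1 fit and 1 without miR-541-5p. Round spermatids against Ago413+/- gave 3 with the filter applied to the libraries of the fit, which left 11 members. The cause was not tested where none is given. The comparisons that gave 0 members did so under all alternatives run.

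Replicate numbers are shared by all groups, but their deviations were not correlated above 0.1 for every number in any pair of groups (0 to 3 of 4 numbers), so the numbers were not taken to pair libraries. With the replicate block the counts were 3 and 1 in spermatocytes against Ago413+/+ and Ago413+/-, and 6 and 3 in round spermatids. From 0 to 3 of 4 libraries correlated best with their own number.

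Among 18 uncalled values, 9 of 303 alternatives had the other sign and 2 passed the test. In spermatocytes miR-434-5p (0.09) was -0.13 with library totals, and on leaving out 1 library it ranged from -0.54 without Ago413-/- replicate 2 to 0.34, with -0.05 without Ago413+/+ replicate 2. By the same step miR-127-3p (-0.23) ranged from -0.92 to 0.0687, and was above 0 without Ago413-/- replicate 2 (0.06) or Ago413+/+ replicate 1. miR-411-5p (0.46) ranged from -0.92 without Ago413-/- replicate 3 to 0.83. In round spermatids miR-381-3p (0.20) ranged from -0.082 without Ago413+/+ replicate 2 to 0.72, with -0.05 without Ago413-/- replicate 2, and miR-434-5p (-0.55) from -0.92 to 0.91 without Ago413+/+ replicate 1. Depth limits the members with few counts, miR-337-5p, miR-410-3p and miR-543-3p, whose Ago413-/- groups held 1 to 7 counts.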

Other observations

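The repeated count of miR-541-5p in Ago413-/- spermatocytes can be set beside its other groups. Each of the 4 libraries lists 38 counts at totals of 369491, 182904, 286991 and 238590. In the other 5 groups the counts of this miRNA vary, for example from 28 to 72 in Ago413-/- round spermatids and from 151 to 242 in Ago413+/- spermatocytes. The cause was not tested, and the reads were not analysed here.

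Of the 63 members with too few counts to be tested, 7 reached 10 counts in 1 or 2 libraries: miR-134-5p, miR-136-3p, miR-323-3p, miR-382-5p, miR-494-3p, miR-495-3p and miR-3072-3p. The highest total among untested members was that of miR-382-5p, with 109 counts over all 24 libraries. Summed over all 89 untested members, Ago413-/- and Ago413+/+ libraries overlapped in both cell types, at 113 ± 59.4 and 128 ± 20.6 CPM in spermatocytes and 68.9 ± 23.6 and 109 ± 26.1 CPM in round spermatids.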
